A study of Mus musculus with 8 samples.

Results

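Schwann cell and glial precursor genes were followed in embryonic mouse pancreas after deletion of Sox9. The group consisted of 8 genes, Sox10, Sox8, S100b, Fabp7, Gfra3, Ngfr, Erbb3 and Ednrb, taken by their gene name on the array. All 8 were present, with 16 probes of the 41174 probes that were not controls, among 19750 genes with a current symbol. All 16 passed the detection filter, which asked that the scanner's flag for a signal well above background be set on 4 or more of the 8 arrays, and were tested.

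Each array carried labelled RNA from pancreatic epithelium, dorsal and ventral together, dissected at e15.5 from 4 embryos and pooled. The Sox9 mutant group held 4 such pools from embryos with both Sox9 alleles flanked by loxP sites (Sox9fl/fl) and with Rosa26-CreER. The wild-type group held 4 pools from littermates with Rosa26-CreER alone. Dams of all embryos received tamoxifen (6 mg per 40 g, in corn oil) at e12.5, 3 days before dissection, so CreER and tamoxifen were common to both groups. The Rosa26-CreER strain was on C57Bl/6J, and the Sox9-flox strain was a mixture of FVB/N, C57Bl/6J and CD1. Rosa26 is active in most cell types, so the promoter of CreER did not restrict deletion to epithelium. Replicates were pools of embryos.

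Glial cells of the pancreas come from the neural crest, which enters the organ and gives rise to autonomic neurons and Schwann cells. SOX8, SOX9 and SOX10 form the SoxE group of transcription factors, and SOX10 is required for peripheral glia. Axon-borne neuregulin acts on crest and glial cells through ERBB3 with ERBB2, endothelin 3 through EDNRB, artemin through GFRA3 with RET, and neurotrophins through NGFR. S100B, a calcium-binding protein, and FABP7, a fatty acid-binding protein, are widely used glial markers.

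Values are log2 levels of the processed signal minus the 75th percentile of that array's spots, and fold changes are Sox9 mutant over wild type. Of the arrays, 7 had a median signal of 219 to 272 scanner units and a median raw signal of negative control probes of 69.8 to 87.4 units. The array of mutant replicate 2 stood apart, with 755 and 282 units, and correlated with its group at a median r of 0.923 across genes, against 0.9935 to 0.9955 for the other 7. All mutant pools were on slide 2 and all wild-type pools on slide 1, so slide and genotype cannot be told apart. Results are also given without mutant replicate 2. The main Sox9 probe read 0.52, 0.34, 0.45 and 0.40 in the mutant pools, against 1.68, 1.82, 1.78 and 1.68 in the wild-type pools. The log2 fold change was -1.32 (SE 0.07, limma adjusted p 8.10e-04), which left 40.2% of the wild-type signal. The other Sox9 probes disagreed, with A_52_P577484 at -2.50 (limma adjusted p 0.00140) and A_51_P451606 at 0.65 with overlapping groups (adjusted p 0.338).

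Of the 8 genes, those for a SoxE factor, a pair of glial marker proteins and 3 receptors were lower in Sox9 mutant epithelium. With an adjusted p under 0.05 as the threshold, 6 of the 8 fell, namely S100b, Gfra3, Sox10, Fabp7, Ngfr and Ednrb, and 0 rose. Among all 19390 features tested, 5.49% were called, 3.26% lower and 2.22% higher. The 8 genes were chosen with earlier results of these data known, so these shares describe the group and do not test it. The median log2 fold change of the 8 genes was -1.02, against 0.01 over all features. In 7 of the 8 every mutant pool lay below every wild-type pool, an arrangement found in 14.1% of all features, and Erbb3 was the exception. Without mutant replicate 2, 7 of the 8 were called lower, with Sox8 added, where 10.1% of all features were called lower and 7.18% higher, and the median of the 8 was -0.76 against -0.02. Sox10 and S100b were the 2 still called without any 1 of mutant replicates 1 and 4 and wild-type replicates 1, 3 and 4, and the median of the 8 was then between -0.96 and -1.03. In those fits 361 to 544 of all 19390 features were called, against 1064 with all arrays. Centring each array on its median left 1 of the 8 called, beside 56 of 19390 features. Normexp background correction left 2 of the 8, beside 81 of 19390 features, and no filter on dim probes left 2, beside 420 of 27822. In RNA of pooled, dissected epithelium the cells behind a signal are not known. Fewer glial cells and less RNA per glial cell, among other possibilities, cannot be told apart.

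**Figure D1:**
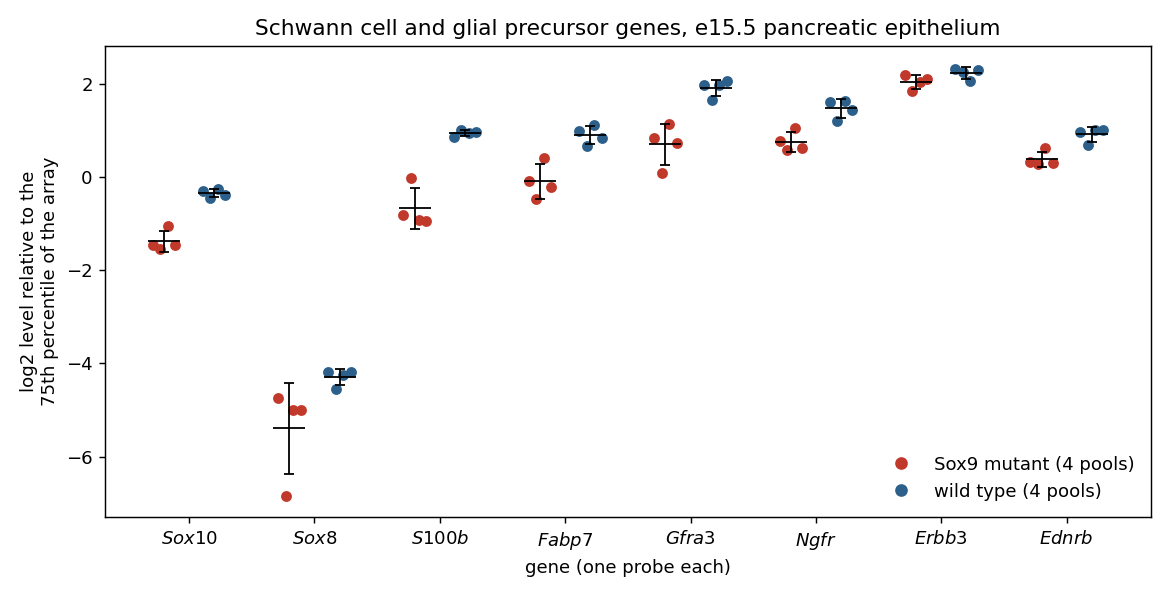
Log2 level of the 8 genes (one probe each), with 0 at the 75th percentile of each array, in 4 Sox9 mutant pools (red, left of each pair) and 4 wild-type pools (blue). Bars give the mean and SD. The mutant and wild-type points overlap for Erbb3 only, and the lowest point of all, at -6.83, is Sox8 in mutant replicate 2.

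Sox10, the SoxE factor of peripheral glia, was measured by a probe on chromosome 15 (78982330 to 78982389, mm8, minus strand). It read -1.47, -1.54, -1.05 and -1.46 in the mutant pools, against -0.30, -0.44, -0.25 and -0.38 in the wild-type pools. All mutant values lay at least 0.61 below the lowest wild-type value, and the wild-type pools differed little among themselves. Sox10 fell 2.05-fold, with a log2 fold change of -1.04 (SE 0.12, limma adjusted p 0.00602), and it was called with each of the 8 arrays left out in turn. It was not called with quantile normalization (-1.27, limma adjusted p 0.0667), with arrays centred on their median (-1.42, adjusted p 0.180) or with the mean of both probes (-0.66, adjusted p 0.235). A second Sox10 probe, 78983708 to 78983767, read -5.21, -2.28, -4.72 and -5.04 in the mutant pools, against -3.94, -3.96, -4.06 and -4.12 in the wild-type pools. Here mutant replicate 2 alone lay above wild type, and the other 3 mutant pools lay below it. The log2 fold change of this probe was -0.29 with all arrays (adjusted p 0.769 in the limma fit of every probe) and -0.97 without mutant replicate 2 (adjusted p 0.00420), next to -0.98 for the main probe in the same fit (adjusted p 0.00374).

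Sox8, the remaining SoxE gene and a partner of SOX10 in glia, was dim. Its main probe on chromosome 17 (25293749 to 25293808) read -4.74, -6.83, -5.00 and -4.99 in the mutant pools, against -4.18, -4.55, -4.25 and -4.19 in the wild-type pools. The groups did not overlap, but mutant replicate 2 lay 1.83 below the nearest mutant pool and was the array on which the probe was not well above background. The log2 fold change of -1.10, with a 95% interval of -2.14 to -0.06, did not pass (limma, adjusted p 0.180). Without that pool Sox8 fell 1.54-fold, with a log2 fold change of -0.62 (limma adjusted p 0.0142). The other Sox8 probe gave 1.10 with all arrays and -0.18 without mutant replicate 2, and passed in neither fit (adjusted p 0.555 and 0.494). Of 17 SOX genes tested, Sox9 and Sox10 were called lower and 0 higher, where 3.26% of all features were called lower and 2.22% higher. Beside the SoxE genes, Sox2, a factor of early neural crest and glial precursors, had the smallest p, with a log2 fold change of 0.43 (limma adjusted p 0.0590). Sox2 was dim too, with a wild-type mean of -5.22. Leaving out mutant replicate 2 gave 6 SOX genes called lower and 1 higher, where 10.1% of all features were called lower and 7.18% higher.

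S100b had the largest change of the 8. Its probe on chromosome 10 (75703680 to 75703739, plus strand) read -0.82, -0.02, -0.92 and -0.94 in the mutant pools, against 0.86, 1.0, 0.95 and 0.97 in the wild-type pools. The wild-type pools were nearly alike (SD 0.06), and mutant replicate 2 was the highest mutant pool. S100b fell 3.07-fold, with a log2 fold change of -1.62 (SE 0.21, limma adjusted p 0.00840). Without mutant replicate 2 the fall was 3.57-fold, with an SE of 0.06 on the log2 scale and an adjusted p of 8.68e-05. Like Sox10, S100b was called with each array left out in turn.

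Fabp7, also on chromosome 10 (57476648 to 57476707, plus strand), read -0.09, -0.47, 0.40 and -0.23 in the mutant pools, against 0.98, 0.66, 1.11 and 0.84 in the wild-type pools. The highest mutant pool, replicate 3, came within 0.26 of the lowest wild-type pool, replicate 2. Fabp7 fell 1.99-fold, with a log2 fold change of -0.99 (SE 0.19, limma adjusted p 0.0323). The threshold was missed without mutant replicates 1 or 4 or any 1 wild-type pool (adjusted p up to 0.103), with log2 fold changes of -0.92 to -1.07. Without mutant replicate 2 the log2 fold change was -0.87 with an adjusted p of 0.0178.

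Promoters are shown for S100b and Fabp7. Among the genes called lower with RefSeq promoter sequence at hand, these had the largest falls. SOX proteins, SOX9 and SOX10 among them, share a short binding sequence, and binding to these promoters was not tested. Each runs from 250 bases before the gene start to 50 after it, 5′ to 3′ on the gene's strand, on build GRCm38.p6, and capitals mark CAAAG and CAATG, the core of SOX binding sequences, on either strand.
S100b (chr10:76253586-76253885, plus strand): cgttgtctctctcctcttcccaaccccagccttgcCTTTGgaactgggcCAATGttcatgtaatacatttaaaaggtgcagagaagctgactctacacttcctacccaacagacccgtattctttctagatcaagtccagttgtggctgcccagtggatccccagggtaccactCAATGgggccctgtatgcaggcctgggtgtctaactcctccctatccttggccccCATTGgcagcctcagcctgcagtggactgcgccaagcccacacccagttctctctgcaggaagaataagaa
Fabp7 (chr10:57784673-57784972, plus strand): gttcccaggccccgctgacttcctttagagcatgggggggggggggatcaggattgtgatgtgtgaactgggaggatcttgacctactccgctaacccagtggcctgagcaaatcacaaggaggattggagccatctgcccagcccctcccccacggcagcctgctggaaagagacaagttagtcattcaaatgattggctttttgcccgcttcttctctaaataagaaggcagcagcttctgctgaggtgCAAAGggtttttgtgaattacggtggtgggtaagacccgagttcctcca
The S100b promoter held 1 CAAAG and 3 CAATG, and the Fabp7 promoter held 1 CAAAG, 1 base after the gene start. Promoters of Sox8, Ngfr and Ednrb were matched too, 5 of 8 genes in all, and each of the 5 held at least 1 of these cores, as did 70.3% of 32851 promoters of the same length. The longer forms ACAAAG and ACAATG were in 0 of the 5 and in 28.6% of all promoters. The cores overlap the longer forms. A match is a matter of letters only.

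Among the receptors, Gfra3, the artemin co-receptor, changed most. It read 0.84, 0.09, 1.14 and 0.73 in the mutant pools, against 1.96, 1.65, 1.96 and 2.06 in the wild-type pools. Mutant replicate 3 was the highest mutant pool and wild-type replicate 2 the lowest wild-type pool, as for Fabp7. Gfra3 fell 2.31-fold, with a log2 fold change of -1.21 (SE 0.22, limma adjusted p 0.0260). Leaving out mutant replicate 2 gave -1.01 with an adjusted p of 0.00481. The threshold was missed without mutant replicates 1 or 4 or any 1 wild-type pool (adjusted p up to 0.0875), with log2 fold changes of -1.16 to -1.29.

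Ngfr, the low-affinity neurotrophin receptor of crest cells and glia, had 10 spots of its main probe on each array (chromosome 11, 95384987 to 95385046). Their mean was 0.76, 0.58, 1.04 and 0.63 in the mutant pools, against 1.62, 1.20, 1.63 and 1.43 in the wild-type pools. The groups came within 0.16 of each other, again between mutant replicate 3 and wild-type replicate 2. Ngfr fell 1.64-fold, with a log2 fold change of -0.72 (SE 0.14, limma adjusted p 0.0314). It missed the threshold without mutant replicates 1 or 4 or wild-type replicates 1, 3 or 4 (adjusted p up to 0.101), with log2 fold changes of -0.66 to -0.73. The second Ngfr probe, 95390313 to 95390372, gave -0.39 and did not pass in the fit of every probe (adjusted p 0.203), nor without mutant replicate 2 (-0.46, adjusted p 0.0946).

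Ednrb, the endothelin receptor that keeps crest cells as migrating precursors, had the smallest change of the called genes. Its main probe on chromosome 14 (102700946 to 102701005) read 0.31, 0.28, 0.62 and 0.29 in the mutant pools, against 0.97, 0.67, 1.01 and 1.0 in the wild-type pools. Mutant replicate 3 and wild-type replicate 2 were 0.05 apart, while the other 6 pools fell into groups well separated by genotype. Ednrb fell 1.45-fold, with a log2 fold change of -0.54 (SE 0.11, limma adjusted p 0.0405). The threshold was missed without mutant replicates 1 or 4 or wild-type replicates 1, 3 or 4 (adjusted p up to 0.125, log2 fold changes of -0.51 to -0.52), and in the fit of every probe (0.0506). The second Ednrb probe, 102702709 to 102702768, gave -0.26 with overlapping groups (adjusted p 0.501).

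Erbb3, the neuregulin receptor on which Schwann cell precursors depend, did not differ detectably by the probe kept for it, and whether that probe measures Erbb3 was not analysed here. The kept probe, on chromosome 10 at 127970642 to 127970701 and annotated to the accession XM_972868, read 2.18, 1.84, 2.03 and 2.11 in the mutant pools, against 2.31, 2.25, 2.05 and 2.30 in the wild-type pools. Values of the groups were interleaved, with wild-type replicate 3 below mutant replicates 1 and 4. The log2 fold change was -0.19, with a 95% interval of -0.42 to 0.04 (limma, adjusted p 0.271). The other 4 Erbb3 probes, annotated to NM_010153, were dim, and in all 4 mutant replicate 2 was the highest of the 8 arrays. Their log2 fold changes were between 0.38 and 0.92 with all arrays and between -0.23 and 0.22 without that array. None of the 4 passed in either limma fit of every probe (lowest adjusted p 0.392 with all arrays and 0.0530 without mutant replicate 2), and with all arrays 2.17% of all probes were called lower and 1.74% higher.

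**Figure D2:**
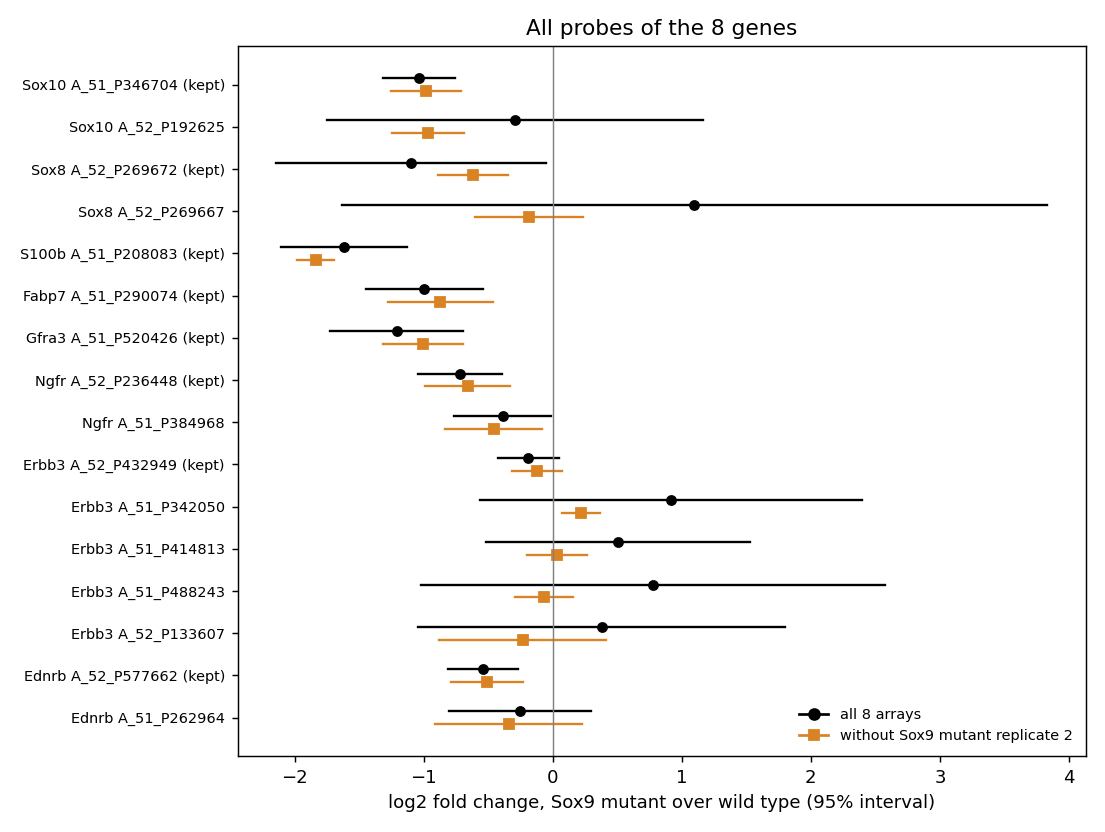
Log2 fold change, Sox9 mutant over wild type, of each of the 16 probes with its 95% interval, from the limma fit of every probe, with all 8 arrays (black circles) and without mutant replicate 2 (orange squares). The kept probes of Sox10, S100b, Fabp7, Gfra3, Ngfr and Ednrb lie below 0 in both settings, and the widest interval with all arrays, -1.64 to 3.83, belongs to the second Sox8 probe.

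Within each genotype the pools were ordered alike for most of these genes. Wild-type replicate 2 was the lowest wild-type pool for 6 of the 8, with S100b and Erbb3 as the exceptions, and it was the lowest for 22.6% of all features. Mutant replicate 3 was the highest mutant pool for 5 of the 8, Sox10, Gfra3, Fabp7, Ngfr and Ednrb, against 15.8% of all features. Mutant replicate 2, the array that stood apart in signal, was the lowest mutant pool for 7 of the 8, against 46.1% of all features. It was also the highest mutant pool for 42.6% of all features, and for the second probes of Sox10 and Sox8. The part of the array in its place among the pools was not tested. S100b ran the other way on both, highest in wild-type replicate 2 among wild-type pools and in mutant replicate 2 among mutant pools. Autonomic neuron genes, which mark the other crest derivative of the organ, shared part of this order, with wild-type replicate 2 the lowest wild-type pool for 19 of 25 genes and mutant replicate 3 the highest mutant pool for 15 of 25.

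**Figure D3:**
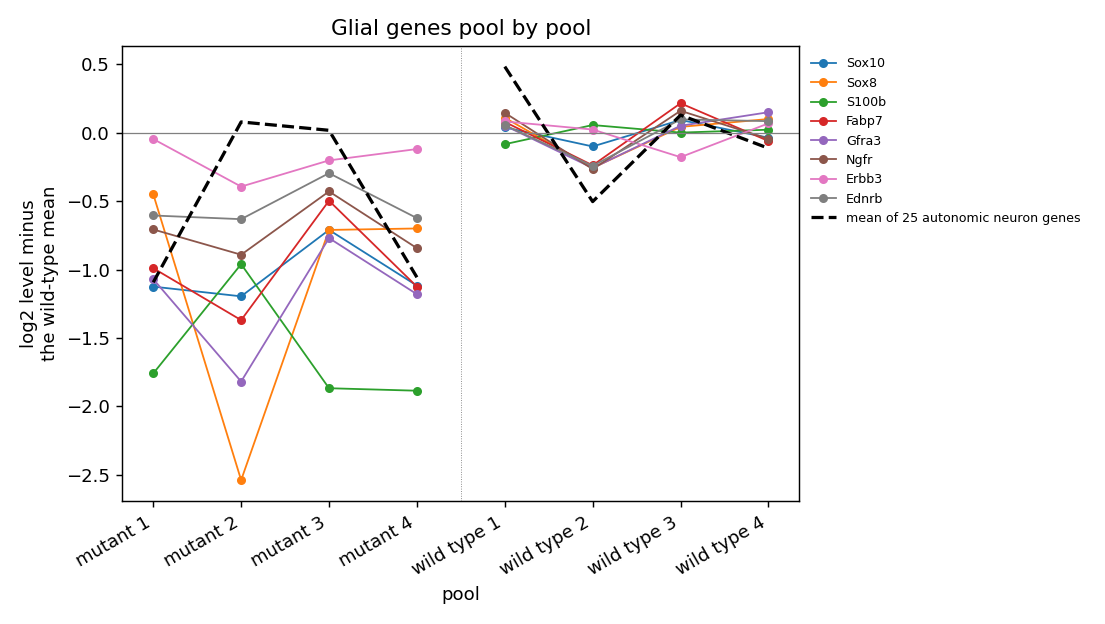
Log2 level of each gene minus its wild-type mean in the 4 Sox9 mutant pools (left) and 4 wild-type pools (right), with the mean of 25 autonomic neuron genes as a dashed line. Lines join points of the same gene and carry no order. Most genes have their lowest wild-type value in replicate 2 and their highest mutant value in replicate 3, while S100b does not, and the neuron mean spans 1.17 in the mutant pools and 0.99 in the wild-type pools.

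The mean level of the 25 autonomic neuron genes was -2.85, -1.68, -1.74 and -2.81 in the mutant pools, against -1.27, -2.26, -1.63 and -1.87 in the wild-type pools. The groups overlapped, with mutant replicates 2 and 3 inside the range of wild type. The median log2 fold change of the list was -0.43, and 19 of 25 genes had a negative value, as did 9429 of all 19390 features. Of the 25 genes 0 passed in limma, where 3.26% of all features were called lower. The smallest p belonged to Elavl4, a neuronal RNA-binding protein gene (-1.04, adjusted p 0.0501), and Mapt, the tau gene (-1.54, adjusted p 0.0935). Without mutant replicate 2, 3 of the 25 fell and 0 rose, and the median was -0.65. In that fit 10.1% of all features were called lower and 7.18% higher. The part of this difference in the glial result was not tested.

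Among further genes of Schwann cells and their precursors the receptors Gpr17 and Adgrg6 were lower in mutant pools. Of 36 listed genes 31 were tested, 2 fell and 0 rose, and the median log2 fold change was -0.09. Over all features 3.26% were called lower and 2.22% higher. Cdh19, Gjc3, Pax3, Gfap and Adam22 did not reach the detection filter. Gpr17, a receptor gene of oligodendrocyte precursors, read 0.34, 0.05, 0.62 and 0.33 in the mutant pools, against 1.05, 1.02, 1.16 and 1.25 in the wild-type pools. These groups did not overlap, and Gpr17 fell 1.72-fold (limma, adjusted p 0.0169). Adgrg6 (Gpr126 on the array), an adhesion receptor needed for Schwann cell myelination, fell 1.59-fold (adjusted p 0.0471). Foxd3, a factor of crest and Schwann cell precursors chosen after its values were seen, had -0.63 (adjusted p 0.0642), and leaving out mutant replicate 2 gave -0.74, which passed (adjusted p 0.0148). Without that array 4 of the 31 were called lower and 2 higher, and the median was -0.18. These counts stand beside 10.1% of all features called lower and 7.18% higher in that fit.

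Ligands and co-receptors of the same pathways gave few calls. Of 26 listed genes 23 were tested, 1 fell and 0 rose, with a median of -0.03, where 3.26% of all features were called lower. The gene that fell was Nrtn, the neurturin ligand of the GDNF family, which read 0.40, 0.03, 0.32 and 0.34 in the mutant pools, against 0.82, 0.84, 0.81 and 0.77 in the wild-type pools. All mutant pools lay below the wild-type pools, a 1.45-fold fall (limma, adjusted p 0.0202). The partners of the member receptors, chosen after their values were seen, were Erbb2 (-0.03, limma adjusted p 0.729) and Ret (0.04, adjusted p 0.958). The neuregulin gene Nrg1, also chosen after its values were seen, had 1.41 (limma, adjusted p 0.0855). Ret and Nrg1 were dim, with wild-type means of -4.67 and -4.47, and mutant replicate 2 was the highest mutant pool for both. Ret was at -0.39 without mutant replicate 2 (adjusted p 0.0846). Without mutant replicate 2, 3 of the 23 fell and 1 rose, where 10.1% of all features were called lower and 7.18% higher. The gene that rose was Nrg1, at 0.98 (adjusted p 0.00332), and Gdnf, the ligand that draws crest cells into the gut, was among those that fell, at -1.07 (adjusted p 0.00144), against -0.40 with all arrays (adjusted p 0.681).

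**Figure D4:**
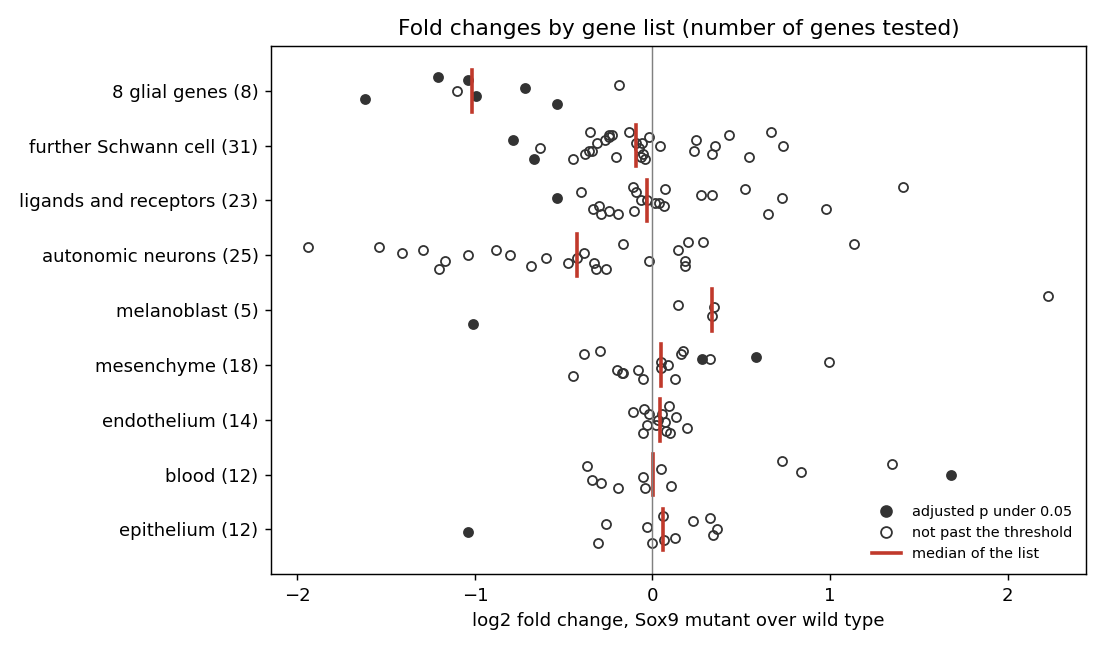
Log2 fold change, Sox9 mutant over wild type, of every tested gene of 9 lists, with genes at an adjusted p under 0.05 filled and the median of each list as a red bar. The 8 glial genes all lie below 0 with a median of -1.02, the autonomic neuron genes spread widely around a median of -0.43, and the endothelial and blood medians are at 0.05 and 0.00.

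Markers of other cell types were followed in the same arrays, where 2.22% of all features were called higher and 3.26% lower. Of 18 mesenchyme genes 2 were called higher, of 12 blood genes 1, and of 14 endothelial genes 0, while 1 of 12 epithelial and 1 of 5 melanoblast genes were called lower. All 18 mesenchyme genes were detected on all 8 arrays of this dissected epithelium. Their mean level was between 2.68 and 2.78 in the mutant pools, against 2.59 to 2.77 in the wild-type pools, and of these genes Nkx3-2 (0.58) and Barx1 (0.28), both factors of foregut mesenchyme, rose (limma, adjusted p 0.0114 and 0.0325). The mean of 14 endothelial genes was 1.29 to 1.53 in the mutant pools, against 1.33 to 1.49 in the wild-type pools, with 0 called in limma. Eng (0.13) and Esam (0.20) had the smallest p of that list. The mean of 12 epithelial genes was 2.78 to 2.99 in the mutant pools, against 2.83 to 2.94 in the wild-type pools, and Pdx1, a pancreatic progenitor factor, fell 2.06-fold (adjusted p 0.00185). Of 12 blood genes Hbb-y, an embryonic globin, rose 3.20-fold (adjusted p 0.0438), and the mean of the list was -1.03 to 0.36 in the mutant pools, with the highest value in replicate 2, against -0.78 to -0.38 in the wild-type pools. Melanoblasts are another crest derivative. Of 7 of their genes 5 were tested, while Tyr and Tyrp1 did not reach the detection filter. Dct, an enzyme gene of melanin synthesis, fell 2.01-fold (limma, adjusted p 0.0124). It was the only 1 of the 5 with a negative log2 fold change. The median of the 5 was 0.34 with all arrays and 0.07 without mutant replicate 2. With mutant replicate 2 left out, 7.18% of all features were called higher and 10.1% lower. Then 3 mesenchyme, 3 epithelial, 1 endothelial and 1 blood gene were called higher. In that fit 1 mesenchyme, 1 epithelial and 1 melanoblast gene were called lower, the last being Dct (-1.13, limma adjusted p 0.00185). The part of these cell types in the glial result was not tested.

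Genes with the pattern most like that of Sox10 were ranked by Pearson's r with its main probe over the 8 arrays, which mostly follows the step between genotypes. The 5 highest were Fmo1 (r 0.989), a flavin monooxygenase gene, Fam163a (0.988), Col9a2 (0.986), a cartilage-type collagen chain, Slc35d3 (0.985) and Pacsin1 (0.985), and their log2 fold changes were -1.20, -1.13, -0.41, -1.14 and -0.77.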

How the data were processed

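RNA of 8 pools (about 250 ng each) was Cy3-labelled and put on a 1-colour Agilent array of design 014868. Per the file headers, the processed signal was deposited as a linear intensity (scanner units) made by Agilent Feature Extraction 9.5.3.1, with background and spatial trends removed within an array and no normalization between arrays, and probe coordinates are on mm8 (NCBI36). The submitters' processing notes name limma, with no version or steps.

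Control and outlier spots were left out, log2 processed signals of one probe were averaged, and the 75th percentile of the spots of each array was subtracted. Probes well above background on at least 4 arrays (29461 of 41174) were kept, and each gene was represented by its probe of highest average level, which gave 19390 features. A gene's further probes come from a fit of all 29461 probes. Current symbols came from a RefSeq table of GRCm38.p6, by accession for 24375 probes, symbol for 6301 and synonym for 2426, and 8072 had none. limma 3.58.1 in R 4.3.3 (lmFit, eBayes, genotype as the only term, two-sided) gave p-values adjusted by Benjamini-Hochberg over all features. The number of arrays limits the precision, and the SE of S100b was 0.21 with all arrays and 0.06 without mutant replicate 2. Levels were simulated for this comparison over 19382 features. Of 100 features changed by 1 on the log2 scale 62% were called, and of 100 changed by 2 81%, with 11 false calls. The simulated noise of a gene was independent and of equal SD on all arrays. It held no array like mutant replicate 2 and no slide difference, so these shares may not carry over to the data.

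The members and the gene lists were chosen with earlier results of these data known. Named genes were Sox9, all members with every probe, SOX genes and the 5 genes most like Sox10. Of each list, called genes were named by adjusted p, or the 2 of smallest p where a list had none. The limit was 6 for the further Schwann cell and the ligand lists and 3 elsewhere. Foxd3, Erbb2, Ret, Nrg1 and Gdnf fell outside this rule and were named after their values were seen. Alternatives changed the scaling, background correction, filter, choice of probe, array weights and replicate block, left out each array, or used the deposited series table, which holds an intensity on a linear scale with steps between arrays not given in the sources used here. The positions of probes in exons or UTRs, and cross-hybridisation between Sox8, Sox9 and Sox10, were not analysed here.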

Additional observations from a re-analysis of the deposited data

Results flagged for a closer look

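Of 38 sets of 4 pools, each a probe of the glial genes or Sox9 in 1 genotype, 11 had a pool farther from the others than the 95% critical value of Dixon's test, where chance gives about 1 in 20, and 8 of the 11 were mutant replicate 2.

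In mutant replicate 2 the level was -0.02 for S100b (-0.0165 before rounding, next pool -0.82), -1.87, -1.58 and -2.38 for Erbb3 probes A_51_P342050, A_51_P414813 and A_51_P488243, -0.63 for Sox9 probe A_51_P451606, -2.28 for the second Sox10 probe and -0.86 for the second Sox8 probe, all above the other mutant pools. For the main Sox8 probe it was -6.83, below them (next pool -5.00). The fold changes of these probes without that array stand beside their values above, and for Sox9 probe A_51_P451606 the log2 fold change was 0.65 with all arrays and 0.24 without it, past the threshold in neither fit (limma, adjusted p 0.338 and 0.227).

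Mutant replicate 3 was the high pool for Sox10, at -1.05 with the next mutant pool at -1.46, and for Ednrb, at 0.62 with the next at 0.31. Wild-type replicate 2 was the low pool for Ednrb, at 0.67 with the next wild-type pool at 0.97.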

How the results depend on the processing

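All 8 genes kept a negative log2 fold change in every alternative run, except Erbb3, which became 0.48 when all its probes were averaged (adjusted p 0.532), a setting in which Sox8 was at -0.00 (adjusted p 0.999). Of the alternatives, 17 of 18 called S100b and 15 of 18 Sox10, against 8 of 18 for Fabp7 and Gfra3, 7 of 17 for Ngfr and 6 of 18 for Ednrb. The number of glial genes called was 6, and 1 with arrays centred on their median, 2 with normexp background correction, 2 without a filter on dim probes and 3 with all probes of a gene averaged. With 1 array left out it was between 2 and 7, at 7 without mutant replicate 2 and at 2 without any 1 of mutant replicates 1 and 4 and wild-type replicates 1, 3 and 4. The number of all features called was 1064 (431 higher, 633 lower), and 56 with median centring, 81 with normexp (18 higher, 63 lower), 2178 with the series table, 420 without the filter and 4665 with array weights, which gave mutant replicate 2 a weight of 0.05. With 1 array left out it was between 361 and 3343, the highest without mutant replicate 2 and the lowest without wild-type replicate 1. Median centring moved the median of all features to -0.38 and that of the 8 genes to -1.40, and S100b was the gene still called. The cause of these changes was not tested.

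With the replicate number as a block, 117 features were called (67 higher, 50 lower) and 1 glial gene, Sox10 (adjusted p 0.0446), with S100b at 0.0542. The numbers do not pair the pools, by the rule that every such correlation be over 0.1, since deviations from the group means correlated at -0.02 to 0.13 between same-numbered pools. Of the mutant pools 1 of 4, and of the wild-type pools 2 of 4, correlated best with their own number. Slide as a block could not be run, as each slide held 1 genotype. With all arrays, dim probes, such as those of Sox8 and 4 of Erbb3, gave the widest intervals. Without mutant replicate 2 the SE fell from 1.17 to 0.18 for the second Sox8 probe. It fell from 0.77 to 0.09 for Erbb3 probe A_51_P488243.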
